A study of Mus musculus with 7 samples.

Results

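The hippocampus of untreated CD1 mice was profiled by RNA-seq in 3 control libraries, replicates 1, 2 and 3, out of 7 libraries in the series. They were chosen by their labels, and all 55416 Ensembl gene identifiers of their count files were kept, while the summary lines for unassigned reads were set aside. The mice were males of CD1, an outbred stock, matched for age and kept free of specific pathogens. They received neither DMSO nor ONX-0914, the immunoproteasome inhibitor of the study, and no genotype or allele is named in the labels. The other libraries are not described here, and no treatment was compared. Neither the labels nor the methods state an age or whether each library came from 1 mouse. Hence, the spread given below is that between libraries and may be technical.

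The hippocampus is a folded cortical structure required for forming memories of places and events. Its main circuit runs from the granule cells of the dentate gyrus to the pyramidal neurons of CA3 and then of CA1, with CA2 between the latter. These neurons use glutamate, and scattered interneurons use GABA. Astrocytes, oligodendrocytes, microglia and vessels surround them, and RNA of whole tissue mixes all of these cells. An average over cells cannot separate fewer cells of a type from less RNA per cell.

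The libraries held 2913608, 3754590 and 3776096 counts on genes in replicates 1, 2 and 3, which was 90.7%, 90.6% and 90.8% of the reads in their files. Ranks of the genes were alike, with Spearman correlations across genes of 0.983 to 0.985 between pairs of libraries, where genes are not independent replicates. Counts of each pair differed by more than the sampling noise, so no library was a copy of another. The Y-linked gene Ddx3y had 133, 164 and 149 counts, whereas Xist, the RNA of the inactive X chromosome, had 1, 0 and 0.

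To describe what the tissue expressed, the identifiers were first counted by detection. At least 1 count was present in any library for 21747 identifiers and in every library for 15718, while 33669 had no count. Of the 21928 protein-coding identifiers, 13797 were detected in every library. In single libraries, 18081, 18837 and 18528 identifiers were detected, and 3766 identifiers had counts in 1 library only. At these depths, a count of 0 allows up to 3 counts, or 0.794 to 1.03 counts per 1000000 counts (CPM), and this limit covers counting error only.

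Expression was spread over many genes. The 10 genes with most counts held 4.17%, 4.12% and 4.19% of all counts in replicates 1, 2 and 3. The first 100 genes held 19.3% to 19.5%, and the first 1000 held 53.5% to 54.0%. The most abundant 818, 840 and 829 genes accounted for 50% of the counts. Therefore, the curves of the libraries lay almost on each other.

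**Figure D1:**
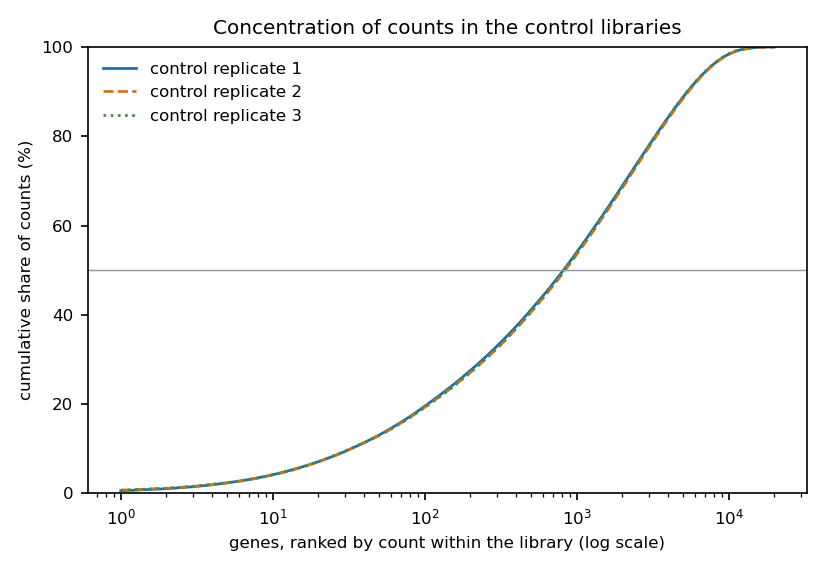
Cumulative share of counts (y axis, percent) over genes ranked by count within each library (x axis, log scale), with 1 line per control library and a grey line at 50%. All 3 lines cross 50% between 818 and 840 genes.

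Levels of different genes were compared per length, as transcripts per 1000000 (TPM), from counts and summed exon lengths. By mean TPM, 105 genes were at 1000 or above, 1733 lay between 100 and 1000, 7362 between 10 and 100, 6914 between 1 and 10, and 5519 below 1. The 25 most abundant nuclear-encoded genes were nearly the same in each library, with 21 in the first 25 of all libraries. Among the first 100, 91 were shared by all libraries.

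The promoters of genes along this ranking differed in letters, and examples of protein-coding genes are shown for that reason. Promoters in mammals fall into those dense in the dinucleotide CG, usual for broadly used genes, and those with few CG, some with a TATA box that positions the start of transcription. Below are the 80 bases just upstream of the RefSeq start (GRCm38.p6) on the strand of the gene, with each CG in capitals. Ptms, Calm3, Ptma and Nrgn are among the 25 genes of highest TPM, and Alb, serum albumin of the liver, had 0 counts in every library.
Ptms (chr6:124917947-124918026, minus strand): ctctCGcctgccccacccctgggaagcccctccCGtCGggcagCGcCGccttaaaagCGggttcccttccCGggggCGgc
Calm3 (chr7:16924033-16924112, minus strand): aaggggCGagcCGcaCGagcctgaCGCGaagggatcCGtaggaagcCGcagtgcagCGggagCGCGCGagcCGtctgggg
Ptma (chr1:86526477-86526556, plus strand): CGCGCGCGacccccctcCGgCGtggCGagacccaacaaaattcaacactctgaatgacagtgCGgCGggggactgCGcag
Nrgn (chr9:37552746-37552825, minus strand): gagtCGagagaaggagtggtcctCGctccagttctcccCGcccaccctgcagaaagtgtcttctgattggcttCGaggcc
Alb (chr5:90460790-90460869, plus strand): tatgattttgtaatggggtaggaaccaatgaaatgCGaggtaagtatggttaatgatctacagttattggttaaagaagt

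These windows held 8 CG for Ptms, 12 for Calm3, 10 for Ptma, 4 for Nrgn and 1 for Alb. The same window of Bc1, the noncoding gene at the top of the ranking, held 2. Over the 250 upstream bases of 16500 protein-coding genes with a promoter in the table, out of 21888, the median was 10 CG. It was 2 for the 4287 genes without a count. Detected genes split into 4 equal classes by TPM had medians of 7, 15, 17 and 17 from the lowest to the highest class, and the 70 matched genes of the 100 most abundant had 14. Thus, CG content differed between undetected and detected genes, and it was equal in both upper classes.

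The letters TATAAA, read on the strand of the gene between 45 and 16 bases before the start, were present in 6.79% of the undetected genes and in 2.90% of all promoters. Across the classes from low to high TPM, they were present in 3.08%, 1.44%, 0.721% and 0.884%, and in 2.86%, or 2, of the 70 matched genes of the 100 most abundant. An example among the genes described below is Fos, a transcription factor induced within minutes by neuronal activity, in which the motif (in capitals) begins 33 bases before the start.
Fos (chr12:85473810-85473889, plus strand): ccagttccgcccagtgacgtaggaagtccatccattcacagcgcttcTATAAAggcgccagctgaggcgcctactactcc

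Bc1, a short neuronal noncoding RNA that is carried into dendrites and represses translation, was the most abundant gene per length. It had 49441, 24185 and 32777 TPM in replicates 1, 2 and 3, which is 35468 ± 12841 TPM (SD, n = 3). Replicate 1 was the highest and replicate 2 the lowest. Its exons span 168 bases, so its TPM depends strongly on the length used, and by counts it was at rank 60. TPM in a library sum to a fixed total, so the TPM of other genes depend on such abundant short genes. Comparisons between libraries are therefore given below as CPM scaled by the trimmed mean of M-values (TMM). On that scale, Mapk8ip1 had 231, 232 and 231 CPM in replicates 1, 2 and 3, at 191, 202 and 202 TPM. The part of Bc1 in this difference was not tested.

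Calmodulin, the calcium sensor of synapses, comes from genes that are known to encode the same protein. Calm2 had 9078, 9494 and 9564 TPM in replicates 1, 2 and 3, and Calm3 had 5380, 5144 and 5136. Calm2 exceeded Calm3 by 1.80 ± 0.0964 times (SD, n = 3), and did so in every library. Camk2a, the alpha subunit of the calmodulin-dependent kinase CaMKII, had the most counts of any gene, 16997, 27280 and 25274. Per length it had 3520 ± 470 TPM (SD, n = 3), and it exceeded Camk2b, the beta subunit, by 5.44 ± 0.601 times. Camk2g had 117 TPM and Camk2d 3.43 TPM on average.

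Other genes of the first 25 belonged to known features of neurons. Nrgn (neurogranin), which binds calmodulin in dendritic spines, had 4136, 4001 and 4055 TPM. Ddn (dendrin), a postsynaptic protein with dendritic mRNA, had 3214 ± 222 TPM (SD, n = 3), and Ppp1r9b (spinophilin), a scaffold of spines, had 2913 ± 91.7 TPM. Hpca (hippocalcin), a calcium sensor of hippocampal neurons, had 2828 ± 379 TPM, and Ncdn (neurochondrin), a protein of dendrites, had 3123 ± 350 TPM. Cpe, which processes neuropeptides, and Chgb, a protein of secretory granules, had 5046 ± 264 and 3037 ± 164 TPM.

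A further set served basic metabolism or glia. Aldoa and Pkm, enzymes of glycolysis, had 6030 ± 266 and 2660 ± 222 TPM (SD, n = 3). Atp1b1, a subunit of the sodium pump, had 2766 ± 81.3 TPM, and Hsp90ab1, a chaperone, had 5708 ± 385 TPM. Ptms and Ptma, the small acidic proteins parathymosin and prothymosin alpha, had 10839 ± 617 and 4266 ± 78.0 TPM. Astrocytes are the known main source of Sparcl1, Glul (glutamine synthetase) and Apoe, which had 4632 ± 532, 2434 ± 103 and 2466 ± 133 TPM. Cst3 (cystatin C), Arf3, Rpl41 and Ywhae completed the list, at 2748 to 4058 TPM.

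**Figure D2:**
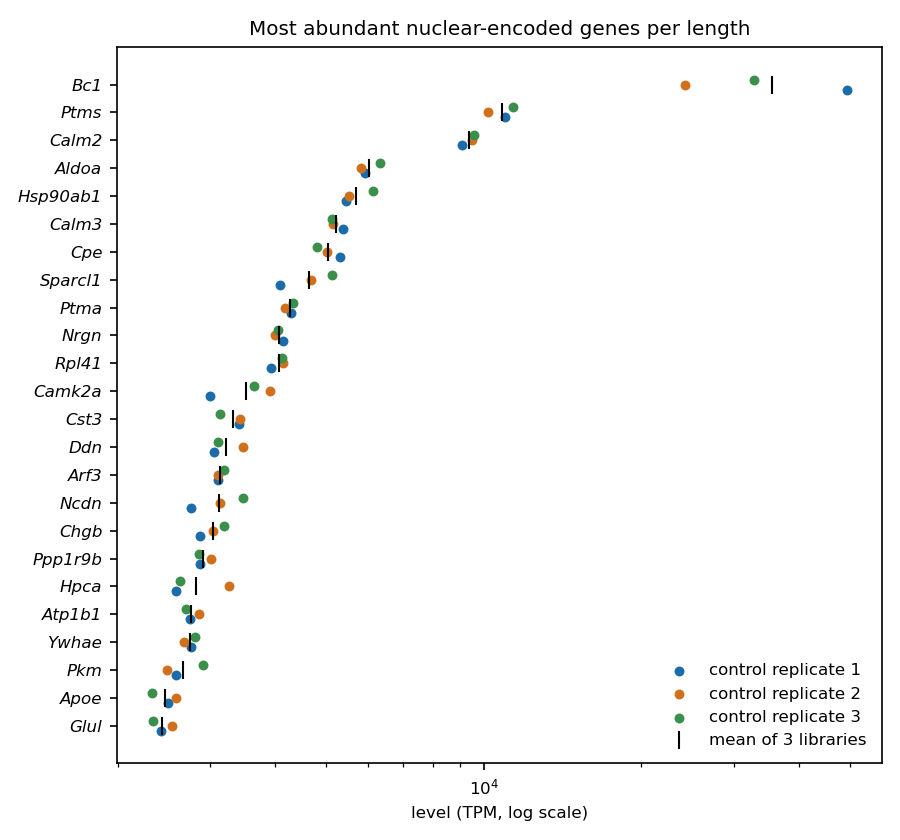
Genes among the 25 nuclear-encoded genes of highest mean TPM (x axis, log scale), with a point for each control library and a black mark for the mean of the 3. Bc1 spans 24185 to 49441 TPM, whereas Calm2 spans 9078 to 9564.

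By gene type, protein-coding genes of the nucleus held 97.5% ± 0.298 of the counts (SD, n = 3). Mitochondrially encoded genes held 1.24%, 1.04% and 0.818% in replicates 1, 2 and 3, lincRNA genes 0.675% ± 0.0705, pseudogenes 0.287% ± 0.0194 and antisense genes 0.115% ± 0.00552. Per length, lincRNA genes held 4.12% ± 1.28 of all TPM, most of which was Bc1. Whether the counting used strand is not stated, so an antisense gene cannot be told apart from its partner.

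Noncoding genes were few but some were abundant. Of 5610 lincRNA identifiers, 395 were detected in every library. After Bc1, those with most counts were 2900097C17Rik with 4419, 4979 and 4731 counts, Meg3, a maternally expressed imprinted RNA, with 2160, 3085 and 2628, 1700020I14Rik with 1408, 1705 and 1633, and Malat1, a nuclear RNA, with 1075, 1239 and 973. Rian, an imprinted RNA of the same locus as Meg3, had 602, 804 and 634 counts, and Peg13, a paternally expressed RNA, had 901, 1084 and 1380. Among pseudogenes, Hmgb1-ps7 had 1118 TPM, Gm13394 had 775 and Rps2-ps13 had 663, all of which are uncertain because reads can be split between such copies and their parents. Mir6236, a microRNA entry, had 92, 87 and 88 counts.

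Of the 13 protein genes of the mitochondrial genome, 7 had counts. mt-Co1, a subunit of cytochrome oxidase, had 10620, 9198 and 7756 TPM in replicates 1, 2 and 3, mt-Cytb had 5618, 4999 and 3928, and mt-Nd1 had 5119, 4870 and 3636. mt-Co2, mt-Co3, mt-Atp6, mt-Atp8, mt-Nd3 and mt-Nd4l were listed at 0 in every library, although cells that respire need them. Therefore, the mitochondrial shares above leave out part of the mitochondrial RNA, and the cause was not tested. Gapdh, a gene with many near-identical copies, had 176 TPM on average, against 1312 TPM for Actb. The line for reads mapping to several places was 0 in each file. The part of such reads in these levels was not tested.

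To check the labelled tissue, marker lists of hippocampal cell types were set beside those of neighbouring regions. The markers of excitatory neurons, all 10 of which were detected in every library, had a median of 655 TPM. Slc17a7, the vesicular glutamate transporter of the cortex and hippocampus, had 1198, 1260 and 1189 TPM and exceeded Slc17a6, the transporter of the thalamus, by 74.9 ± 16.6 times (SD, n = 3). The markers of CA1, CA2, CA3 and dentate granule cells were detected in every library as well. Among them, Wfs1 (CA1) had 118 ± 15.6 TPM, Rgs14 (CA2) 55.2 ± 3.99, Grik4 (CA3) 39.6 ± 2.92 and Prox1 (dentate gyrus) 46.2 ± 3.04. The medians of these lists were 107 TPM for CA1, 23.1 for CA2, 13.9 for CA3 and 24.7 for dentate granule cells. Their lowest members had 7.72, 1.82, 4.51 and 1.90 TPM in the same order.

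Interneuron markers showed the enzymes of GABA synthesis at a lower level than the glutamate transporter. Gad1 had 105, 113 and 125 TPM, and Slc17a7 exceeded it by 10.7 ± 1.05 times (SD, n = 3). Pvalb, the calcium buffer of fast-spiking interneurons, had 469 ± 44.5 TPM, Sst 156 ± 19.2, Npy 50.4 ± 14.9 and Vip 12.7 ± 2.25. Markers of dividing progenitors were near the limit of detection. Mki67, a protein of dividing cells, had 2, 5 and 6 counts, Eomes had 12, 1 and 1, and Dcx, a marker of immature neurons, had 21, 30 and 34.

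Glia were led by astrocytes and oligodendrocytes. Aldoc and Slc1a2, the latter a glutamate transporter of astrocytes, had 1348 ± 35.7 and 866 ± 58.0 TPM. Mbp, myelin basic protein, had 1252 ± 220 TPM. Microglial markers had a median of 54.8 TPM, led by Ctss with 214 ± 29.2 and C1qa with 163 ± 14.2. Endothelial markers had a median of 16.8 TPM, and those of mural cells 14.4 TPM.

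Lists of other regions had low medians, with some higher members. The striatal list of 8 had a median of 3.61 TPM. In it, Drd1 had 16, 23 and 24 counts, Isl1 had 1, 2 and 0, and Six3 had 2, 1 and 1, whereas Ppp1r1b had 179 TPM, and hippocampal neurons express this gene too. The thalamic list of 7 had a median of 2.48 TPM. Its members Gbx2 and Shox2 had 0, 1 and 0 and 1, 0 and 1 counts, whereas Prkcd had 26.1 ± 2.20 TPM and Slc17a6 16.8 ± 3.92. The neocortical list had a median of 4.50 TPM, with Fezf2 at 72.7 ± 2.35 as its highest member. The meningeal list of 6 had a median of 1.84 TPM, from Igf2 with 0, 1 and 0 counts to Slc6a13 with 5.97 ± 2.54 TPM. Hence, markers of each hippocampal field were present, while Fezf2 and Ppp1r1b of the other lists were above Rgs14, Grik4 and Prox1 per length.

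**Figure D3:**
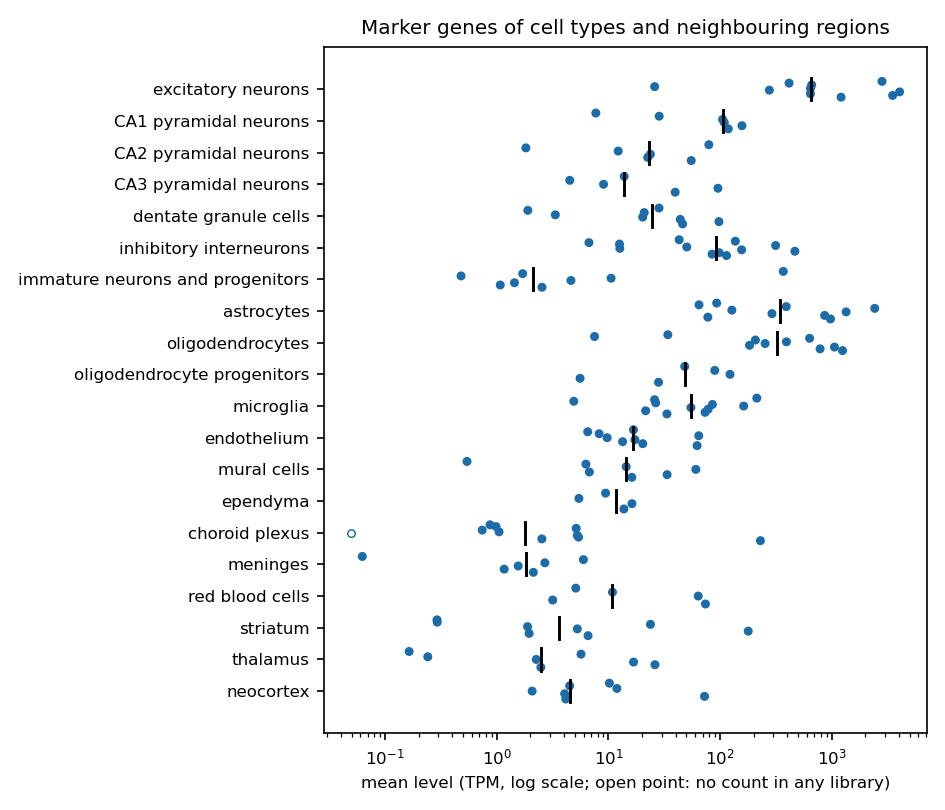
Mean TPM over the 3 control libraries (x axis, log scale) of each marker gene of 20 lists of cell types and regions, with a black bar at the median of each list. Medians range from 655 TPM for excitatory neurons to about 2 TPM for choroid plexus, meninges and progenitors, and the open point, Kcnj13, had no count.

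Receptors for glutamate, which carry fast transmission in this circuit, covered a wide range. The AMPA receptor subunit Gria1 had 1074, 1203 and 1088 TPM, Gria2, the subunit that blocks calcium entry, had 232, 231 and 222, Gria3 had 56.5 ± 8.28 (SD, n = 3) and Gria4 27.0 ± 0.881. Gria1 exceeded Gria2 by 4.91 ± 0.297 times. The NMDA receptor subunit Grin1 had 83.0 ± 4.27 TPM, Grin2b 108 ± 10.7, Grin2a 84.0 ± 1.54 and Grin2c 52.7 ± 7.11. Grin2d had 5.47 ± 1.73 TPM, and Grin3b had 0, 2 and 3 counts. Grik5 was the highest kainate receptor subunit with 155 ± 3.78 TPM.

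Among metabotropic receptors, which act through G proteins, Grm5 had 93.5 ± 2.96 TPM (SD, n = 3), whereas Grm4 had 4.45 ± 1.02 TPM and Grm8 2.64 ± 0.340. Grm6, known from the retina, had no count in any library. The GABA-A receptor included Gabrb2 with 130 ± 3.23 TPM. Gabra5, an alpha subunit typical of hippocampus, had 56.3 ± 9.60 TPM, and Gabra6 of the cerebellum had 1, 0 and 0 counts.

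For the proteasome, the target of the inhibitor used elsewhere in the study, RNA of constitutive catalytic subunits exceeded that of their immune counterparts. The form of the assembled protein was not measured. The 3 constitutive catalytic subunits Psmb7, Psmb6 and Psmb5 had 605 ± 9.88, 281 ± 18.5 and 213 ± 24.6 TPM (SD, n = 3). The immunoproteasome replaces them with Psmb10, Psmb9 and Psmb8, which had 81.5 ± 10.5, 3.84 ± 0.249 and 3.25 ± 1.56 TPM. Psmb9 had 10, 14 and 13 counts and Psmb8 had 12, 11 and 5. Psmb7 exceeded Psmb10 by 7.51 ± 1.04 times, and Psmb6 exceeded Psmb9 by 73.2 ± 2.92 times. The ratio of Psmb6 to Psmb9 rests on the few counts of Psmb9, so its small SD does not make it precise. The ratio of Psmb5 to Psmb8 was 41.7, 69.1 and 127 in replicates 1, 2 and 3, and it rests on the few counts of Psmb8.

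Immediate early genes, which neurons switch on after activity, differed widely in level. Arc, which acts at synapses, had 129, 114 and 122 TPM, Egr1 had 75.0, 58.8 and 79.9, and Egr3 had 71.5, 66.2 and 63.7. In contrast, Fos had 11.8, 12.8 and 10.5 TPM from 21, 28 and 23 counts, and Npas4 had 5, 8 and 12 counts. Of neuropeptides, Cck had 315 ± 35.6 TPM (SD, n = 3), Penk 50.1 ± 7.64 and Pdyn 17.4 ± 1.13, while Oxt, a hypothalamic peptide, had no count and Avp had 0, 0 and 1.

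To ask how far untreated libraries differ, each gene's 3 counts were compared with the shares given by the TMM-scaled library sizes in an exact trinomial test with Benjamini–Hochberg adjustment. Of 11592 genes with enough counts, 1328 differed at FDR below 0.05, which was 11.5% of the genes tested, and 2888 had an unadjusted p below 0.05. The test compares these libraries and sees counting error alone, so calls grow with depth. The common biological coefficient of variation was 0.0853. The median coefficient of variation (CV) of the tested genes was 10.8%, and the median CV expected from counting error was 9.83%. An observed CV of 3 values has a median below its expected value, so the gap between these numbers understates the excess.

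Calls depended on the counts of a gene. Of genes with a mean of 10 to 30 counts, 2.35% were called, and the share was 4.996%, 9.73% and 20.997% in the next classes up to 1000 counts. Among the 637 genes with 1000 counts or more, 356 were called, or 55.9%. The CV left after subtracting counting error had medians of 4.66% to 5.29% in the classes above 30 counts. With 3 values per gene, such medians run low, most where counting error is large. The median biological coefficient of variation per gene from edgeR fell across the classes, from 0.127 at 10 to 30 counts to 0.0716 at 1000 or more. Of the called genes, 136 had a highest library over 2 times the lowest, and in 283 the highest was at most 1.2 times the lowest.

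**Figure D4:**
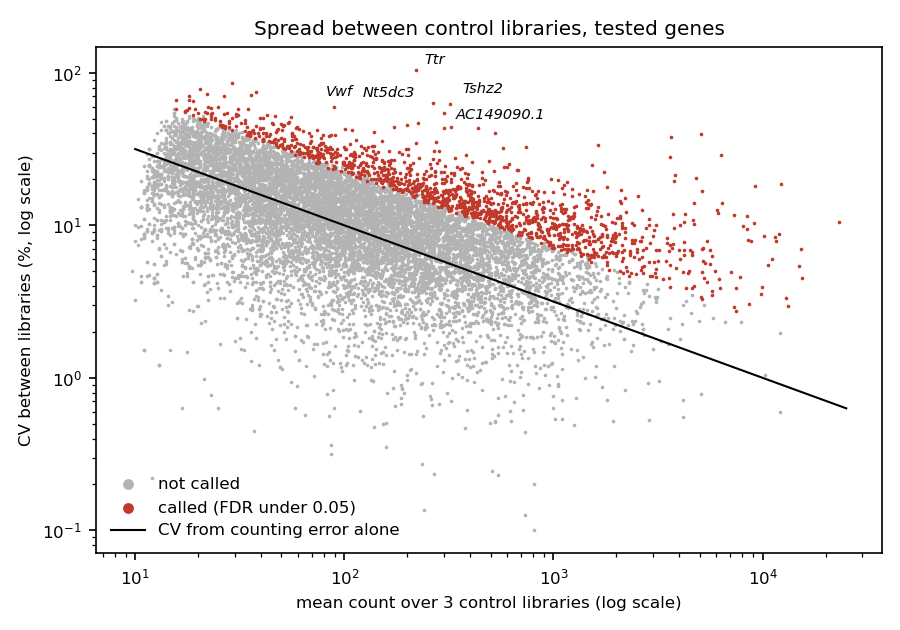
Coefficient of variation between the 3 control libraries after TMM scaling (y axis, percent, log scale) against the mean count (x axis, log scale) of the 11592 tested genes, with called genes in red and the CV from counting error as a line. Ttr lies highest among genes with a mean of at least 50 counts, at a CV of 104%.

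Among the 25 most abundant genes, 22 were called, and 17, 14 and 16 were called without replicates 1, 2 and 3. Of genes with 1000 counts or more, 55.9% were called. Bc1 had 2170, 1003 and 1360 CPM in replicates 1, 2 and 3 (exact test, FDR = 4.89e-313). Camk2a had 5854, 7217 and 6715 CPM (exact test, FDR = 2.44e-96), with replicate 1 the lowest. Hpca had 1976, 2355 and 1899 CPM (exact test, FDR = 2.37e-43), with replicate 2 the highest, and it was not called without replicate 2. For the other called genes of this list, the highest library was 1.05 to 1.19 times the lowest. Calm2 and Rpl41 were among those not called, with FDR of 0.819 and 0.95 in the exact test. Calm2 had 3480, 3439 and 3465 CPM, and a p that misses the threshold does not show equal levels. Calm3 had 3406, 3077 and 3073 CPM (exact test, FDR = 3.44e-14), and it was not called without replicate 1.

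The widest spread beyond counting error among genes with a mean of at least 50 counts was that of Ttr (transthyretin), a carrier of thyroid hormone made by the choroid plexus. It had 155, 33.9 and 22.3 CPM in replicates 1, 2 and 3, a range of 6.93-fold (exact test, FDR = 3.51e-99). Without replicate 1, the FDR was 0.0477. Other markers of the choroid plexus were few. Of the 10 on the list, Folr1 had 10, 3 and 1 counts, Otx2 6, 3 and 2, Clic6 20, 21 and 12, and Kl 43, 42 and 46. Kcnj13 had 0 counts and Aqp1 had 1, 3 and 3. The list summed to 528, 133 and 95.8 TPM in replicates 1, 2 and 3, most of which was Ttr, and of its 3 tested members Ttr alone was called. The part of choroid plexus tissue in this result was not tested.

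The 15 most variable genes were taken from those called by the exact test, so their calls follow from that choice. Several of them were neuronal. Tshz2, a transcription factor, had 68.5, 47.4 and 154 CPM (exact test, FDR = 4.67e-49), and Rims3, a protein of the release site, had 72.7, 63.5 and 137 CPM (exact test, FDR = 8.29e-25), both highest in replicate 3. Nxph3 (neurexophilin), a ligand of neurexins, had 56.8, 25.7 and 68.8 CPM (exact test, FDR = 4.36e-14), lowest in replicate 2. Markers of the neocortex are given beside these values. Of the 5 tested neocortical markers, only Cplx3 was called, against 11.5% of all tested genes. Cplx3 had 32, 13 and 46 counts, lowest in replicate 2, and it was not called without replicate 2. The list of 7 summed to 111, 98.5 and 119 TPM in replicates 1, 2 and 3. None of its members was at 0, and 3 of the 5 tested were highest in replicate 3, against 34.4% of all tested genes. A part of neighbouring cortex in these values was not tested.

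Nt5dc3 had 110, 21.4 and 105 CPM (exact test, FDR = 1.89e-44), being low in replicate 2 alone. Trank1 had 96.4, 184 and 87.9 CPM (exact test, FDR = 5.6e-32), and Neat1, the RNA that builds paraspeckles, had 69.6, 127 and 58.2 (exact test, FDR = 1.12e-22). Both were highest in replicate 2. Neither these 2 nor Nt5dc3 or Nxph3 was called without replicate 2. Vwf, the von Willebrand factor of endothelium, had 29.96, 39.2 and 8.77 CPM (exact test, FDR = 2.8e-13), and Fbxl5, a regulator of iron, had 78.2, 88.1 and 30.8 (exact test, FDR = 1.63e-20), both lowest in replicate 3. None of the 9 tested endothelial markers on the list, which does not hold Vwf, was called, against 11.5% of all tested genes. Slco1a4 of that list was called under total-count scaling and without replicate 1.

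AC149090.1 had 143, 82.0 and 45.4 CPM, S100a6 had 26.5, 13.8 and 10.1, Rpsa, a ribosomal protein with many copies in the genome, had 89.9, 52.4 and 37.2, and 2010111I01Rik had 23.1, 13.5 and 9.57. All of these were highest in replicate 1 and lowest in replicate 3. Parp8 had 9.64, 23.3 and 12.5 CPM, with replicate 2 the highest. Of the 15 genes, 13, 9 and 11 were called without replicates 1, 2 and 3. Those lost included S100a6 and 2010111I01Rik without replicate 1, Parp8 besides the 4 above without replicate 2, and Vwf, Fbxl5, Rims3 and 2010111I01Rik without replicate 3. At the other end, Mapk8ip1, a scaffold of JNK signaling, had 231, 232 and 231 CPM, and Mast2, Bpgm, Morf4l1 and BC005537 were as even.

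Genes of myelin shared their lowest library. Of the 10 oligodendrocyte markers, 8 were called, against 11.5% of all tested genes and 55.9% of those with 1000 counts or more. All 10 were lowest in replicate 3, against 33.3% of all tested genes. Mobp had 2159, 2121 and 1218 CPM (exact test, FDR = 1.4e-227), Mbp had 2876, 3019 and 2115, and Mal had 534, 481 and 321. The median log2 difference of the 10 markers from the mean of the libraries was 0.12, 0.17 and -0.37 in replicates 1, 2 and 3. Without replicate 3, 1 of the 10 was called, Mbp, so the call of the group rests on that library. Olig2 of the progenitor list had 43.7, 77.5 and 49.4 CPM, and the other 4 progenitor markers were not called. Under each scaling tried, all 10 oligodendrocyte markers were lowest in replicate 3.

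Mitochondrially encoded genes were lowest in replicate 3 as well. All 7 measured protein genes were called, against 11.5% of all tested genes and 55.9% of those with 1000 counts or more. They were highest in replicate 1 and lowest in replicate 3. All 7 were also called without replicate 1 or replicate 2, whereas 4 were called without replicate 3. mt-Co1 had 4288, 3509 and 2959 CPM (exact test, FDR = 3.34e-169). The ribosomal RNA mt-Rnr2 had 1512, 1024 and 704 CPM (exact test, FDR = 1.28e-204). Of 76 cytosolic ribosomal protein genes tested, 21 were called, against 11.5% of all tested genes. In the list, 58 were highest in replicate 1 and 55 lowest in replicate 3, against 33.5% and 33.3% of all tested genes. Without replicates 1, 2 and 3, 5, 19 and 9 genes of the list were called. Gene length moved in the same direction. Of 4 equal classes of tested genes by exon length, the shortest had median log2 differences of 0.04, -0.01 and -0.05 in replicates 1, 2 and 3, and the longest had -0.04, 0.00 and 0.03. Its part in these results was not tested.

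Genes of transmitter release had a different order. Of 14 genes, 13 were called, against 11.5% of all tested genes and 55.9% of those with 1000 counts or more. In the list, 12 were highest in replicate 3 and 11 lowest in replicate 2, against 34.4% and 32.5% of all tested genes. Snap25, a SNARE protein of vesicle fusion, had 1515, 1900 and 1991 CPM. Sv2a, a protein of synaptic vesicles, had 437, 385 and 468. Leaving out replicates 1, 2 and 3 in turn left 8, 5 and 7 called genes. The differences were small, at medians of -0.01, -0.10 and 0.10 on the log2 scale.

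**Figure D5:**
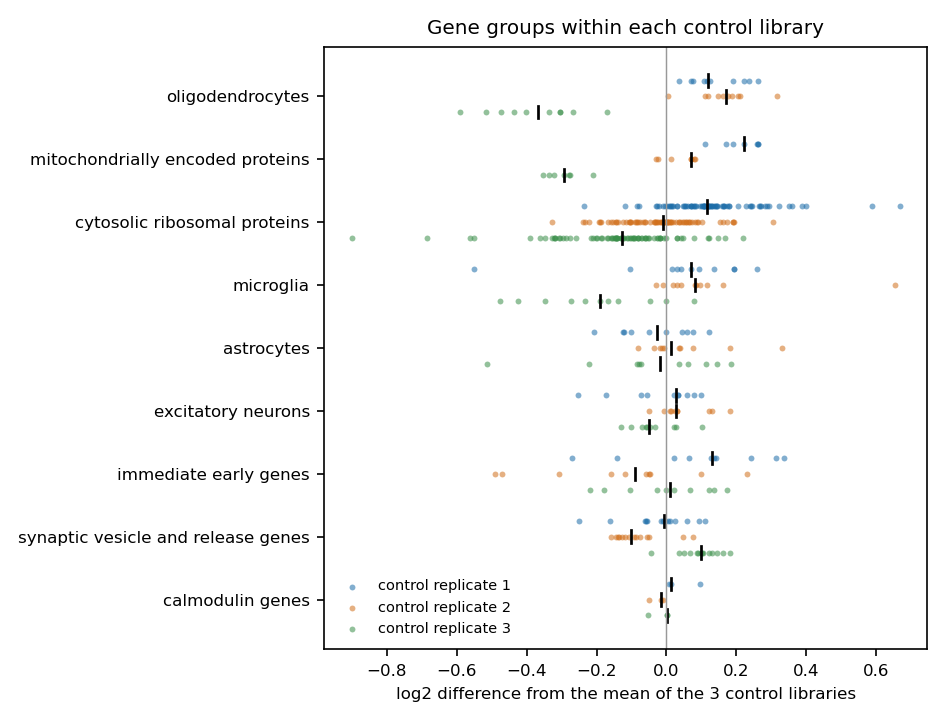
Log2 difference of each tested gene from the mean of the 3 control libraries (x axis), for 9 gene groups, with a point per gene, colours for libraries and black bars at medians. Oligodendrocyte genes in replicate 3 lie left of 0, at a median of -0.37, whereas those of calmodulin lie near 0 in all libraries.

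The counts of called genes in the following groups stand beside 11.5% of all genes tested. Of 10 astrocyte markers, 8 were called, and 4, 7 and 2 were called without replicates 1, 2 and 3. Of the 10, 5 were highest in replicate 3 and 5 lowest in replicate 1, against 34.4% and 34.1% of all tested genes. Gfap, the intermediate filament of astrocytes, had 1080, 1304 and 727 CPM (exact test, FDR = 3.21e-124), whereas Slc4a4 had 219, 260 and 280. Of 17 ionotropic glutamate receptor genes, 5 were called, and 3, 3 and 1 without replicates 1, 2 and 3. Of the 5, Grik3 had 63.4, 61.9 and 103 CPM and Grin2b 650, 641 and 739. Of 7 metabotropic receptor genes tested, Grm2 was called, with 26.2, 38.9 and 51.8 CPM, but not without replicate 1 or replicate 3. Of 12 GABA-A subunit genes, Gabra5 was called, with 51.7, 40.5 and 34.8 CPM, but not without replicate 1, without replicate 3 or without a filter on low counts. Among 10 immediate early genes tested, Junb and Egr1 were called, with 40.6, 23.3 and 34.3 and with 87.8, 65.1 and 88.5 CPM, both lowest in replicate 2, and neither was called without replicate 2. No catalytic proteasome subunit was called by the exact test, either of 3 constitutive or of 2 tested inducible ones, and Psmb7 alone of them had an unadjusted p below 0.05, at 0.0266 in the exact test. Of 11 microglial markers, Trem2 and Ctss were called, and 0, 1 and 0 were called without replicates 1, 2 and 3 and 0 without a filter on low counts. In that list, 8 of the 11 were lowest in replicate 3, at a median log2 difference of -0.19, against 33.3% of all tested genes lowest there. Of 12 interneuron markers, Cck, Lamp5 and Calb2 were called, and 1, 3 and 1 without replicates 1, 2 and 3.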

How the data were processed

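RNA-seq read counts of 3 control libraries were used. The authors prepared directional libraries from total hippocampal RNA, sequenced them single-end and deposited raw counts per Ensembl gene, without normalization. Per the submitters' processing notes, Trimmomatic 0.39, STAR 2.7.3a, featureCounts 2.00 and the GRCm39 build were used, while the annotation release and the strand setting are not given in the sources used here. Reads on no gene (5.48% to 5.59%) and ambiguous reads (3.75% to 3.82%) stayed out of library sizes and tests.

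Symbols, types and exon lengths came from GENCODE M21 (52135 of 55416 identifiers, 99.9% of the counts), and promoters from RefSeq (GRCm38.p6). TPM were computed per library from summed exon lengths. Genes were filtered by filterByExpr and scaled by TMM in edgeR 4.0.16 (R 4.3.3), which also gave the biological coefficient of variation with an intercept only. An exact trinomial test per gene (Python 3.11.15, scipy 1.17.1), ordered by the Pearson statistic and checked on simulated counts, was adjusted by Benjamini–Hochberg over all genes tested (FDR below 0.05). Limits cover counting error only.

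Named were the 25 genes of highest TPM, the 10 with most counts, leading noncoding genes and list members. Also named were the 15 most variable of the called genes and the 5 most even tested genes, all with a mean of at least 50 counts. The control libraries and the lists were chosen with earlier results of these data known. Those of ribosomal proteins, mitochondrial proteins and cytoskeletal and reference genes were added with the counts in hand, and Alb was chosen as a liver gene. Alternatives were RLE and total-count scaling, other filters, a chi-square test, robust estimation, DESeq2 1.42.0, other lengths and leaving out each library. Results of some genes are not reported here.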

Additional observations from a re-analysis of the deposited data

Results flagged for a closer look

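Reads on no annotated gene lie outside the counts used above. They made up 5.51%, 5.59% and 5.48% of the reads in the files of control replicates 1, 2 and 3, from 176921, 231706 and 228083 reads. They were flagged because they are a signal in data that no comparison used, above what a count of 0 allows, and their origin was not tested. Groups of 3 libraries were not tested for outliers.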

How the results depend on the processing

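The number of genes that differed between control libraries beyond counting error was 1256 to 1347 under the other scalings, filters and the chi-square test, against 1328. With 1 library left out and an exact binomial test of the other 2, it was 487 to 774, which is a test with fewer samples. The lowest number, 487, came without replicate 3. Of 130 named calls, 53, 44 and 65 were lost without replicates 1, 2 and 3, and 12 without a filter on low counts, where 21747 genes were adjusted together. The biological coefficient of variation was 0.0769 to 0.0906 with 1 library left out, lowest without replicate 3. DESeq2 gave 0.155, as the median over genes of its fitted trend, whereas the edgeR values are common to all genes. These are unlike measures, and the cause of the difference was not tested. In TPM, the shares of gene types were 90.2% protein-coding, 3.37% mitochondrially encoded, 4.12% lincRNA, 1.45% pseudogene and 0.232% antisense, since short genes weigh more per length. Of 381 levels recomputed with the length of the longest transcript, 230 moved by more than 1 SD and 41 by over 1.5 times, and 21 of the 25 most abundant genes remained. TMM-scaled CPM per kilobase, a unit with another total, moved 361 levels. Depth limits genes below 3 counts per library.

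No paired analysis was possible because only 1 group of libraries was described.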

Other observations

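Cytoskeletal and reference genes were looked at for their evenness between the untreated libraries. Of 12 tested, Tuba1a, Tubb3 and Ppia were called by the exact test, against 11.5% of all genes tested. Without replicates 1, 2 and 3, 1, 2 and 2 were called, and Ppia was not called without a filter on low counts. Tubb3, a neuronal tubulin, had 496, 363 and 491 CPM in replicates 1, 2 and 3, and Ppia had 117, 104 and 89.8. Actb, which was not called, had 919, 862 and 874 CPM, and Hprt had 176, 151 and 150. Hemoglobin RNA was measurable, with 26, 65 and 40 counts of Hbb-bs and 44, 66 and 48 of Hba-a1.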
